A study of Homo sapiens with 18 samples.

Results

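The 10 genes described here encode the proteins that govern passage through G1: the D-type cyclins CCND1, CCND2 and CCND3, their kinases CDK4 and CDK6, the CIP/KIP inhibitors CDKN1A, CDKN1B and CDKN1C, and the INK4 inhibitors CDKN2B and CDKN2C. They were chosen by symbol from the 26668 gene rows of the expression table, and all 10 symbols had a row. The choice was made with earlier results of these data known. Their transcript levels were compared between control and OFD1 knockdown libraries within each of 3 established human cell lines derived from pancreatic cancers (PANC1, MIA PaCa-2, PATU8988T). OFD1 encodes a protein of centrioles and centriolar satellites. Each line had 3 control and 3 knockdown libraries, 18 in all. Knockdown cells carried a lentiviral Tet-On cassette, from which doxycycline induces a short hairpin RNA against OFD1, and had been given doxycycline for 72 h. The control titles name a control hairpin while their other labels read wild type and untreated, and the study's methods describe solvent-treated cells of the same Tet-On lines. No control received doxycycline, so effects of the drug and of the knockdown cannot be told apart. The series text places controls at day 0 and knockdown cells at day 3, while the study's methods give 72 h for both. If the series text holds, time in culture cannot be told apart from the knockdown either. The source labels of PATU8988T replicates 2 and 3 give slightly different line numbers (8989T and 8990T), and no label says that replicates were separate cultures, so the p-values measure only the spread between these libraries, which may be technical.

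In cells entering the cycle, mitogen signals raise D cyclins, which bind CDK4 or CDK6. The complexes phosphorylate RB family proteins, and E2F factors then drive the genes of S phase. INK4 proteins bind CDK4 and CDK6 directly and keep the cyclin out. CIP/KIP proteins block CDK2 complexes and also sit on cyclin D complexes, whose assembly they can aid. CDKN1A (p21) is a classic target of p53 and also answers to other stress pathways, CDKN1B (p27) is controlled largely by protein turnover, and CDKN2B (p15) lies beside CDKN2A, the p16 gene, in a region that many pancreatic cancers have lost. Transcript levels report neither the proteins nor kinase activity.

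RefSeq promoter windows of GRCh38.p14, each running from 250 bases before to 50 bases after a transcription start, were held for 7 of the 10 genes (not for CCND1, CCND2 and CDKN1C) and gave 12 windows. Those of 4 genes are shown as examples of genes that moved the same way in PANC1 and MIA PaCa-2 below, CDKN1A and CDKN1B upward, CDK6 and CDKN2C downward. CCND3, which also fell in both, had 3 windows, which are not shown. All are 5′ to 3′ on the strand of the gene. Capitals mark a GC box (GGGCGG, either strand) or an E2F word (TTCCCGC with the variants TTCGCGC, further TTGGCGC and lastly TTGCCGC, either strand).
CDKN1A promoter, chr6:36678464-36678763, plus strand: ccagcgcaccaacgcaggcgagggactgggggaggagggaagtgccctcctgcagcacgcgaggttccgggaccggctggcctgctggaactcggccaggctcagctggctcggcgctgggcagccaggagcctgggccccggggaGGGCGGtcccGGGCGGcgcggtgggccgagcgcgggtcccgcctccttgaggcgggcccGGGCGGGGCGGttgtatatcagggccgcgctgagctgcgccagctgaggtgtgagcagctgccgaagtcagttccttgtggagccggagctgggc
CDKN1B promoter, chr12:12717118-12717417, plus strand: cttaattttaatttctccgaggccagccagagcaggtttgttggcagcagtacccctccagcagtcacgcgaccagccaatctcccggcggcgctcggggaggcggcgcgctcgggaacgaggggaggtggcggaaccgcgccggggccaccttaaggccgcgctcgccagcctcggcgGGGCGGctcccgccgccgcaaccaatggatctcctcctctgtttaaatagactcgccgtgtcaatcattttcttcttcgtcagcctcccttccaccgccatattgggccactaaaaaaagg
CDK6 promoter, chr7:92836524-92836823, minus strand: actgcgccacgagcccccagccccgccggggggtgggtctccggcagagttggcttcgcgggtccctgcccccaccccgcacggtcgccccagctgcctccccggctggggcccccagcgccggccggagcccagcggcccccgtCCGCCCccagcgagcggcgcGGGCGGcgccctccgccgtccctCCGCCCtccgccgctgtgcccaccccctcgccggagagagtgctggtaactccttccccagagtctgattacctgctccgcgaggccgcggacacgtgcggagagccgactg
CDKN2C promoter, chr1:50968456-50968755, plus strand: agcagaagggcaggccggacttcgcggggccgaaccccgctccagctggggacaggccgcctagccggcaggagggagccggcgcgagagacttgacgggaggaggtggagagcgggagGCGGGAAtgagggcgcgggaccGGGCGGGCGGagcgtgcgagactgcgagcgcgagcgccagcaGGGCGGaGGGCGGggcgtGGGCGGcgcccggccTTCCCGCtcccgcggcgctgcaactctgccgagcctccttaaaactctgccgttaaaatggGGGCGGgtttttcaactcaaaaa

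One of the windows of CDKN2C, the one shown, held E2F words, beginning 131 and 34 bases before the start and overlapping no GC box. They were absent from the other 11 windows, including both alternative starts of CDKN2C. CDK6 also had an alternative start, not shown, whose window held no GC box either. Of 34943 windows over all genes, 12.9% held an E2F word and 44.9% a GC box, which 9 of the 12 members' windows held. The CHR words TTTGAA and TTCGAA, present in 16.4% of all windows, matched none of the 12. A match is a run of letters and not a measured binding site.

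Values are FPKM, fragments scaled by transcript length and by library size, as the authors deposited them, and can be compared between genes because they are divided by length. Reads assigned to genes, worked back from the FPKM values, ranged from 32486479 to 39797537 per library. OFD1 itself fell in every line. The means were 5.43 ± 0.279 FPKM in PANC1 controls and 2.55 ± 0.263 after knockdown (SD, n = 3). MIA PaCa-2 had 2.85 ± 0.509 before and 1.82 ± 0.129 after, and PATU8988T 2.06 ± 0.112 before and 0.911 ± 0.0679 after. These OFD1 values implied a gene length of 4150 bases for PANC1 but 9312 for both other lines. They therefore compare control with knockdown within a line, and not OFD1 levels between lines. MIA PaCa-2 control replicate 2 stood apart. Its root mean square log2 distance to each other control over all tested genes averaged 0.522. The same measure was 0.335 for its fellow controls, which includes their distance to it, and at most 0.195 in any other group. Calls that change without it are given both ways. Of 7 epithelial markers, all reached a mean of 1 FPKM in PANC1, whereas KRT7, EPCAM and CDH1 did not in MIA PaCa-2, nor KRT7, KRT19 and CDH1 in PATU8988T. The endothelial list stayed at or below 0.233 summed FPKM in every library. In MIA PaCa-2 the 6 fibroblast markers summed to between 153 and 183 FPKM in controls and 209 to 211 in knockdown libraries, and the 5 immune markers to between 2.46 and 4.63 and 5.92 to 6.27, with CD3E at 0. Their part in the results was not tested.

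In the control libraries the 10 genes spanned a wide range and kept a similar top order. CDK4 was highest in every line and CCND1 next. The CDK4 mean was 75.9 ± 2.28 FPKM for PANC1, 116 ± 19.7 for MIA PaCa-2 and 176 ± 3.14 for PATU8988T (SD, n = 3). Below them, CDKN2C and CDKN1A overlapped in PANC1, while MIA PaCa-2 showed CDKN2C, CDKN1B and CCND3 overlapping, and PATU8988T CCND3 and CDKN1B. CDKN1A took very different places. It stood at 19.0 and 21.8 FPKM in PANC1 and PATU8988T, and in MIA PaCa-2 at 1.33, where its libraries overlapped those of CDKN1C. CDKN2B was listed at 0 in every library of PANC1 and MIA PaCa-2. A listing at 0 does not by itself show absence. In PANC1, 43 genes listed at 0 throughout averaged at least 10 FPKM in both other lines, as did 14 genes listed at 0 in MIA PaCa-2. CCND2 was low in PANC1 and MIA PaCa-2, at 0.412 ± 0.0838 and 0.0795 ± 0.0416 FPKM, and reached 2.14 ± 0.0950 in PATU8988T. The lengths that the FPKM values imply differed between lines for CCND3 (2915 bases in PANC1, 3121 in the others) and CDKN1A (2716 and 3002), so no test was made between lines on their levels.

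**Figure D1:**
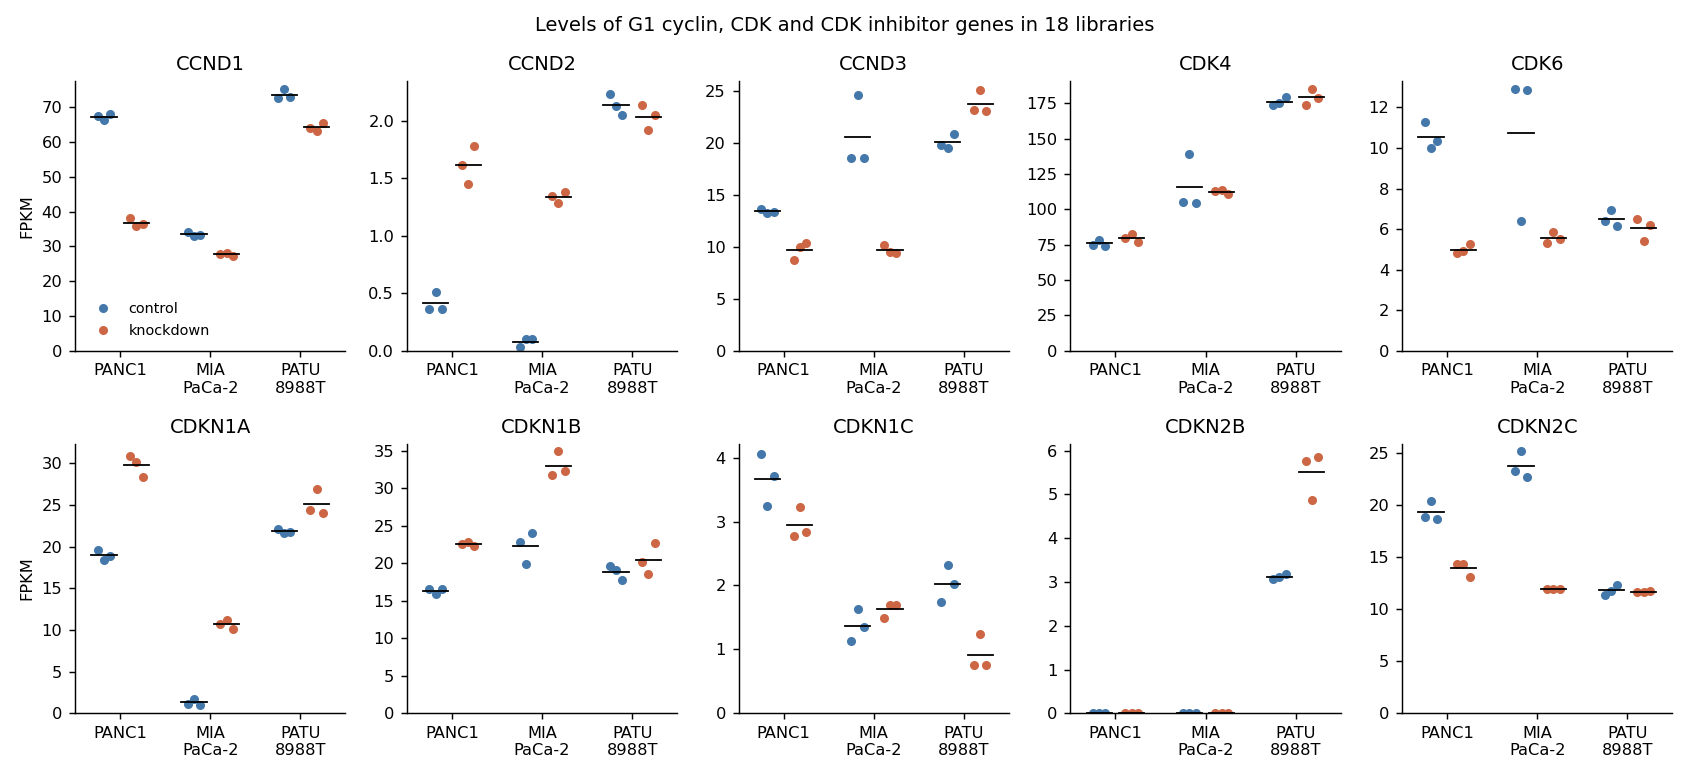
FPKM (linear axes from 0, a scale for each gene) of the 10 genes in the 18 libraries, with control and knockdown libraries side by side in each line; points are libraries and black bars are means of 3. CDKN1A rises from 1.33 to 10.7 FPKM in MIA PaCa-2, CCND1 falls from 67.4 to 36.9 in PANC1, and CDKN2B is seen in PATU8988T alone.

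Changes were tested with limma on log2(FPKM + 0.1) within each line, over all genes with a mean of at least 1 FPKM there, with Benjamini-Hochberg adjustment, and a gene was called at an adjusted p below 0.05. Fold changes on this scale understate those of low genes. Of the 10 genes, 9 passed the filter in PANC1, 8 passed it in MIA PaCa-2, and all 10 passed it in PATU8988T. CDKN2B failed it in the first 2 lines and CCND2 in MIA PaCa-2. CCND2 in PANC1 passed it only through the knockdown libraries and so had to be higher there. CDKN1C in PATU8988T averaged under 1 FPKM after knockdown and so passed the filter only through its controls.

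CCND1, the major D cyclin of these cells, fell in all 3 lines. In PANC1 its control libraries stood at 67.6, 66.4 and 68.2 FPKM and its knockdown libraries at 38.1, 36.0 and 36.6. The difference was -0.87 on the log2 scale (SE 0.0312, adjusted p = 5.82e-09), with wide space between the groups. MIA PaCa-2 libraries gave 34.1, 32.9 and 33.4 against 27.9, 28.1 and 27.1 (log2 change -0.27, SE 0.0673, adjusted p = 0.0196). Those of PATU8988T gave 72.8, 75.2 and 73.1 against 64.2, 63.1 and 65.7 (log2 change -0.20, SE 0.0347, adjusted p = 0.00207). The groups did not overlap in either line, although the change was small beside that in PANC1. The MIA PaCa-2 call was lost when any library other than control 2 was left out, with adjusted p between 0.0592 and 0.103, and without control 2 it stood at 5.34e-05.

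CCND2, a D cyclin with a more tissue-restricted pattern, was nearly silent in the controls of PANC1 and MIA PaCa-2 and present after knockdown. PANC1 controls gave 0.359, 0.508 and 0.367 FPKM, which correspond to 84, 122 and 82 reads, and its knockdown libraries 1.62, 1.45 and 1.79, or 341, 308 and 398 reads. MIA PaCa-2 controls gave 0.0315, 0.104 and 0.103 FPKM (8, 27 and 26 reads) and its knockdown libraries 1.34, 1.28 and 1.38 (339, 317 and 343 reads). Knockdown means were 3.93 times the control mean for PANC1 and 16.8 times for MIA PaCa-2, without overlap in either. With no filter on low values, the limma fit gave log2 changes of 1.76 (SE 0.163, adjusted p = 9.88e-05) and 3.03 (SE 0.223, adjusted p = 0.000893). PATU8988T, which began with more, showed 2.24, 2.13 and 2.05 FPKM in controls and 2.14, 1.92 and 2.05 after knockdown. There the groups overlapped, with a log2 difference of -0.07 and a 95% interval from -0.26 to 0.12.

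CCND3, the third D cyclin, moved in opposite directions. In PANC1 it fell from 13.7, 13.3 and 13.4 FPKM to 8.74, 10.0 and 10.4 (log2 change -0.47, SE 0.0650, adjusted p = 0.000106). In MIA PaCa-2 the controls stood at 18.6, 24.6 and 18.6, with control 2 highest, and the knockdown libraries at 10.2, 9.54 and 9.46. This fall was -1.06 (SE 0.130, adjusted p = 0.00139) and -0.93 without control 2. In PATU8988T CCND3 instead rose, from 19.8, 19.6 and 20.9 to 23.2, 25.2 and 23.1 (log2 change 0.24, SE 0.0492, adjusted p = 0.00406). The rise in PATU8988T missed the threshold when all 18 libraries shared 1 fit (adjusted p = 0.0797).

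With all libraries, CDK4, the most abundant of the 10 transcripts, was called in no line by limma, nor did it reach an unadjusted p below 0.05 in any. PANC1 values were 74.9, 78.5 and 74.3 FPKM in controls and 79.8, 82.8 and 77.1 after knockdown, with a log2 difference of 0.07 (95% interval -0.00273 to 0.15, adjusted p = 0.0761). Without control 2 or without knockdown 3 it was 0.10 and was called (adjusted p 0.0331 to 0.0352). In PATU8988T they were 174, 175 and 180 against 174, 185 and 179, and the interval of the log2 difference ran from -0.06 to 0.11. Each of these intervals lies well inside a 2-fold change. MIA PaCa-2 gave 105, 139 and 104 against 113, 113 and 111. Its interval, -0.31 to 0.25, was widened by control 2, and without that library CDK4 was 0.10 higher after knockdown (SE 0.0215, adjusted p = 0.00252).

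CDK6, the alternative partner of the D cyclins, fell in PANC1 from 11.3, 10.0 and 10.3 FPKM to 4.81, 4.90 and 5.25. The groups lay far apart (log2 change -1.06, SE 0.0644, adjusted p = 2.24e-07). In MIA PaCa-2 the controls read 12.9, 6.40 and 12.9 and the knockdown libraries 5.32, 5.83 and 5.49, so that control 2 lay close to the knockdown libraries. The change was -0.87 (SE 0.271, adjusted p = 0.0414) with that library and -1.20 (SE 0.0528, adjusted p = 2.30e-07) without it. Leaving out any of the other 5 libraries lost the call (adjusted p 0.104 to 0.122). So did the fit with no filter on low values (adjusted p = 0.0769). In PATU8988T the values, 6.40, 6.94 and 6.16 against 6.48, 5.43 and 6.23, overlapped, with a log2 difference of -0.11 (95% interval -0.28 to 0.07).

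CDKN1A rose in all 3 lines and by very different amounts. In PANC1 it went from 19.7, 18.4 and 18.9 FPKM to 30.9, 30.1 and 28.4 (log2 change 0.65, SE 0.0435, adjusted p = 4.98e-07). MIA PaCa-2 began near the floor at 1.18, 1.78 and 1.02 and reached 10.7, 11.2 and 10.1, a rise of 2.95 (SE 0.197, adjusted p = 0.000202), or 7.73-fold. PATU8988T showed the smallest rise, from 22.1, 21.7 and 21.7 to 24.4, 27.0 and 24.0 (log2 change 0.20, SE 0.0502, adjusted p = 0.0116), and this call was lost when all 18 libraries shared 1 fit (adjusted p = 0.303).

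CDKN1B rose in PANC1 and MIA PaCa-2. The PANC1 controls read 16.5, 15.9 and 16.6 FPKM and the knockdown libraries 22.5, 22.9 and 22.2 (log2 change 0.46, SE 0.0380, adjusted p = 2.24e-06). MIA PaCa-2 read 22.9, 19.9 and 24.0 against 31.7, 35.0 and 32.2 (log2 change 0.57, SE 0.0967, adjusted p = 0.00482). Neither pair of groups overlapped. In PATU8988T, 19.7, 19.1 and 17.8 overlapped 20.2, 18.6 and 22.6, and the log2 difference of 0.12 had a 95% interval from -0.04 to 0.27. Without knockdown replicate 2 this difference was 0.18 and was called (adjusted p = 0.0424).

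CDKN1C, encoding p57, an imprinted gene and the third of the family, was the CIP/KIP inhibitor that fell. PATU8988T went from 1.74, 2.32 and 2.02 FPKM to 0.754, 1.25 and 0.752 (log2 change -1.09, SE 0.185, adjusted p = 0.00169). In PANC1 the values were 4.05, 3.23 and 3.72 against 2.78, 3.23 and 2.84, where control 2 and knockdown 2 almost touched. That fall of -0.30 (SE 0.102, adjusted p = 0.0216) was lost without control 1, control 3, knockdown 1 or knockdown 3 (adjusted p 0.0572 to 0.0870). It was also lost with no filter on low values (adjusted p = 0.0515) and when all 18 libraries shared 1 fit (adjusted p = 0.142). MIA PaCa-2 showed 1.13, 1.63 and 1.35 against 1.49, 1.70 and 1.69, an overlapping difference of 0.24 (95% interval -0.13 to 0.62) that became 0.37 and was called without control 2 (adjusted p = 0.0240).

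CDKN2B could be followed in PATU8988T alone, where it rose from 3.06, 3.13 and 3.18 FPKM to 5.77, 4.88 and 5.86 (log2 change 0.79, SE 0.0800, adjusted p = 8.30e-05). The groups were well separated, with 439 to 470 reads in controls and 675 to 849 after knockdown. The gene lies at chr9:22002903-22009363 on the minus strand of GRCh38, beside CDKN2A at chr9:21967753-21995301. CDKN2A was listed at 0 in all MIA PaCa-2 libraries and had between 0 and 6 reads per library in PANC1. In PATU8988T it stood at 23.7, 24.7 and 23.5 FPKM in controls and 25.3, 27.8 and 26.9 after knockdown (log2 change 0.15, SE 0.0467, adjusted p = 0.0269). Both neighbours were thus measured in the same line and both rose there.

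CDKN2C, which encodes p18, fell in the lines where CDKN2B was listed at 0. In MIA PaCa-2 it stood at 23.3, 25.2 and 22.7 FPKM in controls and 12.0, 11.9 and 12.0 after knockdown (log2 change -0.98, SE 0.0793, adjusted p = 0.000346). In PANC1 it went from 18.9, 20.4 and 18.7 to 14.3, 14.4 and 13.1 (log2 change -0.47, SE 0.0529, adjusted p = 2.27e-05). PATU8988T values overlapped, 11.3, 11.8 and 12.3 against 11.7, 11.6 and 11.8, with an interval from -0.12 to 0.09. The MIA PaCa-2 knockdown libraries thus came down to the level of PATU8988T. CDKN2D, the remaining INK4 gene (p19), fell in PANC1, where controls of 3.80, 4.50 and 4.06 FPKM compared with 1.73, 2.43 and 1.84 (log2 change -1.02, adjusted p = 4.77e-05). It also fell in MIA PaCa-2, where 8.16, 13.5 and 7.78 compared with 3.98, 2.90 and 3.20 (log2 change -1.49, adjusted p = 0.00370). In PATU8988T it was not called (log2 difference 0.09, 95% interval -0.07 to 0.26).

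Counted by line, 3 of the 9 tested members rose in PANC1 and 5 fell, against 40.1% and 32.2% of all 10902 genes tested. CCND2 is among the 3, although it could only be tested because it was higher. In MIA PaCa-2, 2 of 8 rose and 4 fell, against 18.7% and 21.7% of 10758 genes. In PATU8988T, 3 of 10 rose and 2 fell, against 20.9% and 18.5% of 10698 genes. With so many genes called, the share of members called in PANC1 and PATU8988T was not far from the background. In MIA PaCa-2 the background itself depended on control 2. Without that library 35.4% of all genes were higher and 39.8% lower, and 4 of 8 members were higher and 4 lower. The members were chosen with earlier results of these data known, so no excess of calls can be read from these counts. The study's stricter criteria, an adjusted p below 0.05 with a fold above 2 or below 0.5, kept CDK6 downward in PANC1, beside 4.84% of all genes, and upward, beside 1.75%, only CCND2, with the same limit. They kept CDKN1A and CCND3 in MIA PaCa-2, beside 4.07% and 3.68%. Without control 2 of that line CCND3 (-0.93) no longer met them and CDK6 (-1.20) did. In PATU8988T they kept no member upward, beside 0.159%, and CDKN1C downward, beside 0.841%. CDKN1C, also among the 2 that fell there, passed the filter on low values only through its controls. The median log2 change of the tested members was -0.30 for PANC1, -0.15 for MIA PaCa-2 and 0.00 for PATU8988T, beside 0.06, -0.03 and 0.03 over all genes. Single members were also compared by the exact permutation test over libraries, two-sided, which with 3 against 3 cannot go below p = 0.1, and every member whose groups did not overlap gave that value.

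**Figure D2:**
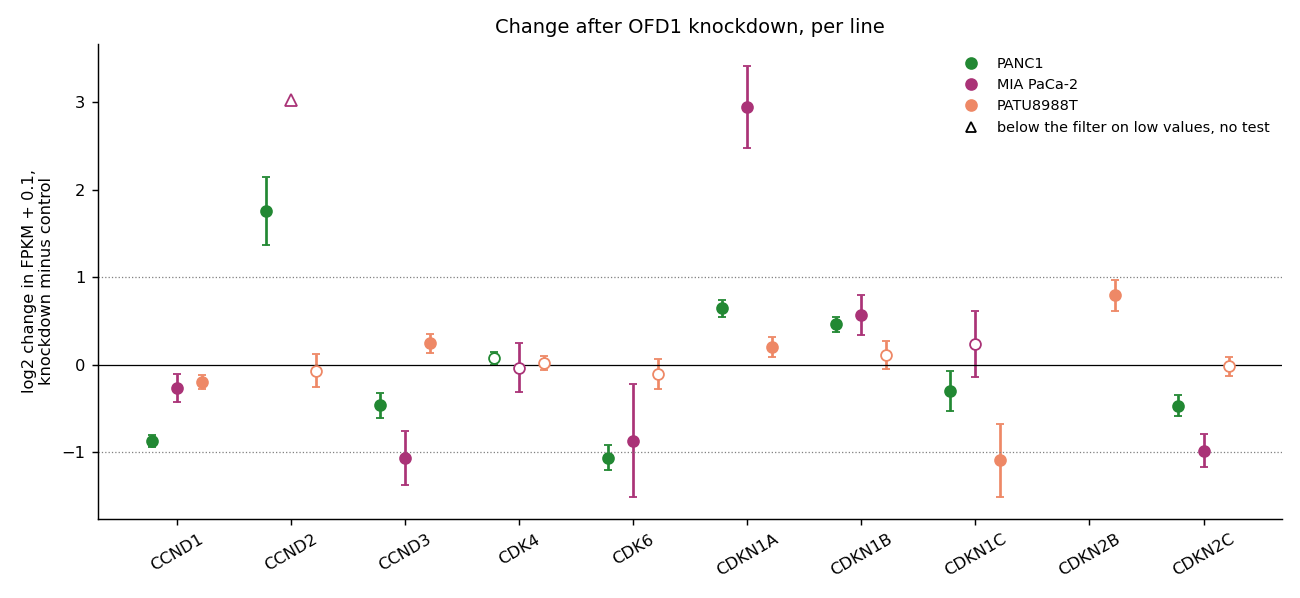
Log2 change in FPKM + 0.1 (knockdown minus control) of each gene in the 3 lines with its 95% interval from limma; filled points passed an adjusted p of 0.05, open points did not, the triangle marks CCND2 in MIA PaCa-2, which was below the filter on low values, and dotted lines mark 2-fold. CDKN1A (2.95) and CCND2 (3.03) in MIA PaCa-2 lie highest, CCND3 lies below 0 in 2 lines and above it in PATU8988T, and CDK4 sits near 0 in all 3.

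The size of the knockdown effect was compared between lines in 1 limma model of all 18 libraries, with 9 members tested. It differed between PANC1 and MIA PaCa-2 for 5 members, between PANC1 and PATU8988T for 7 and between MIA PaCa-2 and PATU8988T for 7, where 43.2%, 35.8% and 51.1% of all 10697 genes differed. CCND2 is among the members called in every pair, although it averaged at least 1 FPKM over the 18 libraries only through its knockdown libraries. CCND1 fell further in PANC1 than in MIA PaCa-2 (difference of log2 changes -0.60, SE 0.0533, adjusted p = 4.22e-07) and than in PATU8988T (-0.67, SE 0.0533, adjusted p = 1.33e-07). Between the latter lines its effect differed by -0.07, with a 95% interval from -0.19 to 0.04. CCND3 separated each pair of lines, most of all MIA PaCa-2 from PATU8988T (-1.31, SE 0.132, adjusted p = 7.70e-07). CDKN1A rose more in MIA PaCa-2 than in PANC1 (PANC1 minus MIA PaCa-2 -2.30, SE 0.180, adjusted p = 1.11e-07) and than in PATU8988T by 2.75 (SE 0.180, adjusted p = 7.64e-09). CDKN2C fell further in MIA PaCa-2 than in PANC1 (difference 0.52, SE 0.0814, adjusted p = 0.000114), and further in both than in PATU8988T. For CDK6 the PANC1 and MIA PaCa-2 effects were not called different (difference -0.19, 95% interval -0.75 to 0.36), nor were those of CDKN1B (-0.11, 95% interval -0.34 to 0.12). Without MIA PaCa-2 control 2 the CDK6 difference changed sign to 0.14 and was still not called (adjusted p = 0.253), while CDKN1C became different in that pair (-0.67, adjusted p = 0.0173). CDK4 was called different in no pair.

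Summed by class, which is a description without a test, the D cyclins went from 81.7, 80.1 and 81.9 FPKM to 48.4, 47.5 and 48.8 in PANC1. In MIA PaCa-2 they went from 52.7, 57.6 and 52.1 to 39.5, 38.9 and 38.0, and in PATU8988T from 94.9, 96.9 and 96.0 to 89.5, 90.2 and 90.8. The sum was lower in every knockdown library than in any control library of its line. CCND1 supplied most of it throughout, with 83.0% in PANC1 controls and 76.5% after knockdown. Its share was 61.9% before and 71.5% after for MIA PaCa-2, and 76.8% before and 71.3% after for PATU8988T. CCND2 made up 3.35% of the sum in PANC1 and 3.45% in MIA PaCa-2 knockdown libraries, so its large fold added little to the total. The CIP/KIP sum went the other way. PANC1 controls had 39.0 ± 1.35 FPKM and knockdown libraries 55.3 ± 1.56 (mean ± SD, n = 3), MIA PaCa-2 had 25.0 ± 1.53 and 45.3 ± 2.26, and PATU8988T had 42.7 ± 1.03 and 46.5 ± 1.08. In MIA PaCa-2 most of this sum was CDKN1B, since CDKN1A was 5.41% of it in controls and 23.6% after knockdown.

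The ratio of the CIP/KIP sum to the D cyclin sum was 0.480 ± 0.0120 in PANC1 controls, 0.463 ± 0.0523 in those of MIA PaCa-2 and 0.445 ± 0.0130 in those of PATU8988T. After knockdown it was 1.15 ± 0.0455, 1.17 ± 0.0587 and 0.516 ± 0.00844. The ratio was above 1 in all 6 knockdown libraries of the first 2 lines and below it elsewhere, with no overlap between groups in any line. Summed CDK4 and CDK6 changed little, with means of 86.5 and 84.9 FPKM for PANC1, 127 and 118 for MIA PaCa-2 and 183 and 185 for PATU8988T, and the groups overlapped in each line. The MIA PaCa-2 controls were 118, 145 and 117, with control 2 highest. CDK6 went from 12.2% to 5.89% of that sum in PANC1.

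**Figure D3:**
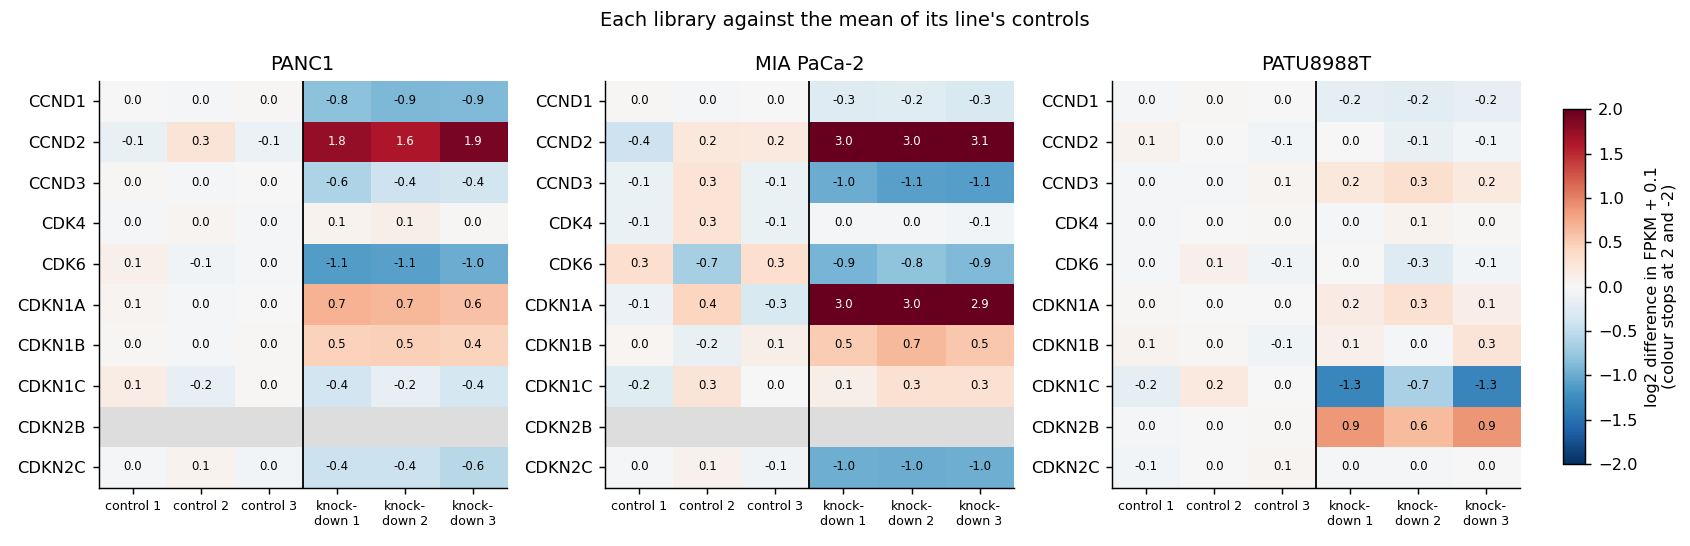
Log2(FPKM + 0.1) of each gene in each library minus the mean of the 3 controls of its line; red is higher, blue lower, colour stops at 2 and -2, and grey marks CDKN2B, listed at 0 in that line. The knockdown libraries of each line resemble each other, and MIA PaCa-2 control 2 departs from its fellow controls in CDK6, CDK4, CCND3 and CDKN1A.

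Other genes of the pathway were counted by list, to be read against the shares of all genes called. For PANC1 these were 40.1% higher and 32.2% lower, for MIA PaCa-2 18.7% and 21.7%, and for PATU8988T 20.9% and 18.5%. Of 14 genes of S, G2 and M phases, all 14 fell in PANC1, 13 fell in MIA PaCa-2, and in PATU8988T 5 rose by limma at an adjusted p below 0.05. At an unadjusted p below 0.05, 14, 14 and 0 fell and 0, 0 and 8 rose. The median log2 changes were -1.02, -0.75 and 0.11 in that order of lines. Those with the smallest p are TOP2A, a DNA topoisomerase, in PANC1 (66.8 to 27.6 FPKM, log2 change -1.27), PLK1, a mitotic kinase, in MIA PaCa-2 (140 to 57.0, log2 change -1.30) and PCNA, the replication clamp, in PATU8988T (139 to 172, log2 change 0.30). In bulk RNA a change in the share of cells in each phase and a change in transcript per cell cannot be told apart, and the part of cycle distribution in the members' changes was not tested. Of 9 late G1 and other INK4 genes tested in each of PANC1 and MIA PaCa-2, 2 rose and 4 fell in the former and 1 rose and 5 fell in the latter, while 6 of 10 rose in PATU8988T (medians 0.00, -0.37 and 0.18). CCNA2, the A cyclin of S phase, fell in PANC1 from 18.8 to 8.36 FPKM (log2 change -1.16) and by 0.73 in MIA PaCa-2, and rose by 0.20 in PATU8988T. CCNE2, an E cyclin, fell in PANC1 from 3.29 to 1.03 FPKM (log2 change -1.60, adjusted p = 1.11e-06) and from 2.52 to 0.777 in MIA PaCa-2 (log2 change -1.52, adjusted p = 0.00515), where it averaged under 1 FPKM after knockdown and so passed the filter only through the controls. CDK2, its kinase, fell by 0.47 and 0.44 on the log2 scale in those lines and rose by 0.22 in PATU8988T. CCNE1, the other E cyclin, rose by 0.29 in PANC1 and 0.26 in PATU8988T. CDC25A, a phosphatase that activates CDK2, rose by 0.59 in PATU8988T and 0.24 in PANC1, and fell by 0.37 in MIA PaCa-2.

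Among the 12 pocket protein and E2F genes, 3 rose and 8 fell in PANC1, 1 rose and 6 fell in MIA PaCa-2, and 5 rose in PATU8988T, with median log2 changes of -0.43, -0.56 and 0.06. E2F5, which acts mostly as a repressor, rose in each line, by 0.88, 1.39 and 0.27 on the log2 scale. RBL1, a pocket protein of the RB family, fell by 0.71 in PANC1, and E2F8 fell by 1.11 in MIA PaCa-2 and 0.57 in PANC1. E2F1, an activator, rose from 28.5 to 40.2 FPKM in PATU8988T (log2 change 0.49), and fell by 0.82 in PANC1 and 0.85 in MIA PaCa-2. TFDP1, the partner of E2F factors, rose by 0.35 in PANC1 and 0.21 in PATU8988T and fell by 0.48 in MIA PaCa-2.

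Of the p53 target genes, 9 of 17 tested rose and 5 fell in PANC1, 9 of 18 rose and 1 fell in MIA PaCa-2, and 9 of 19 rose in PATU8988T, with medians of 0.23, 0.55 and 0.18. Over all genes 40.1% rose and 32.2% fell in PANC1, so its counts lie near the background, while 18.7% rose and 21.7% fell in MIA PaCa-2 and 20.9% rose in PATU8988T. SESN2, a stress-induced sestrin, rose in each line, by 1.23, 2.15 and 1.24 on the log2 scale. GADD45A, a stress and growth arrest gene, rose by 1.41 in MIA PaCa-2, 0.56 in PATU8988T and 0.54 in PANC1. MDM2, the p53 ubiquitin ligase and itself a p53 target, fell by 0.75 in PANC1, and its difference of -0.06 in MIA PaCa-2 was not called. SESN1 rose by 1.25 in PANC1 and 0.68 in MIA PaCa-2. AEN, a nuclease, rose by 0.47 in PATU8988T and fell by 0.21 in PANC1, while TP53INP1 passed the filter in MIA PaCa-2 only through its knockdown libraries (0.336 to 1.90 FPKM).

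Transcription factors known to act on D cyclin and CDK inhibitor genes were called in both directions, with 5 up and 9 down of 17 for PANC1, 9 up and 2 down of 18 for MIA PaCa-2, and 8 up and 5 down of 17 for PATU8988T. All genes gave 40.1% up and 32.2% down, 18.7% and 21.7%, and 20.9% and 18.5% in that order. Their medians were -0.15, 0.37 and 0.11. DDIT3, a factor of the integrated stress response, rose in each line, by 0.84, 1.28 and 0.84, and ATF4, from the same response, likewise rose in each, by 0.46, 0.82 and 0.34. FOSL1, an AP-1 subunit, fell from 38.3 to 10.8 FPKM in PANC1 (log2 change -1.81) and from 352 to 209 in PATU8988T (log2 change -0.76), and by 0.27 in MIA PaCa-2. EGR1, an immediate early factor, rose by 1.54 in MIA PaCa-2, and KLF6 rose by 0.78 there and fell by 0.52 in PATU8988T and 0.26 in PANC1.

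Of 14 genes for the turnover and assembly of D cyclins and CIP/KIP proteins, 4 rose and 3 fell in PANC1 (40.1% and 32.2% of all genes did), 3 fell in MIA PaCa-2 (21.7%) and 5 rose in PATU8988T (20.9%). None of them changed by 2-fold, and the medians were 0.03, -0.13 and 0.06. HSP90AB1, a chaperone that serves CDK4 folding, fell by 0.24 in PANC1 and 0.33 in MIA PaCa-2. AMBRA1, the adaptor that directs D cyclins to degradation, rose by 0.40 in PANC1, and SKP1, a subunit of SCF ubiquitin ligases, by 0.25. CUL1, the scaffold of those ligases, and UBAC1, a subunit of the ligase that degrades CDKN1B, fell by 0.66 and 0.51 in MIA PaCa-2, while CUL1 rose by 0.14 in PATU8988T and UBAC1 fell by 0.25 in PANC1. In PATU8988T, CKS1B, which helps SKP2 recognise CDKN1B, RBX1 and SKP1 rose by 0.23, 0.15 and 0.18. Without MIA PaCa-2 control 2, an analysis added after the data were seen, 35.4% of all genes were higher and 39.8% lower in that line. The members gave 4 higher and 4 lower of 8, CDK4 and CDKN1C joining the former. The lists gave 14 of 14 phase genes lower, 1 higher and 6 lower of the late G1 list, 2 and 9 of the pocket and E2F list, 12 and 4 of the p53 targets, 10 and 6 of the upstream factors and 3 and 6 of the turnover genes.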

How the data were processed

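RNA-seq libraries of 3 pancreatic cancer cell lines were compared, 3 control and 3 OFD1 knockdown libraries each, grouped by their labels. Per the study's methods, the authors mapped reads with HISAT2, counted them with HTSeq-count and deposited FPKM values, scaled by gene length and library size. Versions and annotation are not given in the sources used here, and the processing notes name the build hg38 beside mouse builds. Methods and labels name different extraction and library kits.

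Within each line, log2(FPKM + 0.1) was fitted with limma 3.58.1 (R 4.3.3; lmFit, eBayes with a variance trend) over genes averaging at least 1 FPKM, with Benjamini-Hochberg adjustment of the p-values over all of them. Effects were compared between lines as interaction terms on all 18 libraries. SDs are over 3 libraries. Reads per library and gene were recovered from the FPKM steps, where 1 read is worth a whole fraction of library size times gene length. In PANC1 99.1% of the genes used for this gave a whole length. Count models were not applied to FPKM. Each fit was checked on simulated data.

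All 10 members were named in each line, with OFD1, CDKN2A and CDKN2D, and up to 3 genes of smallest p per list among those called. The members and lists were chosen with earlier results of these data known. Alternatives were pseudocounts of 1 and 0.01, no filter, a minimum mean of 5 FPKM, other scaling or centring, no trend, array weights, 1 fit of 18 libraries, a replicate block and leaving out each library. Promoter windows came from RefSeq (GRCh38.p14), gene positions from GENCODE (GRCh38). Figures were drawn with matplotlib 3.10.9.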

Additional observations from a re-analysis of the deposited data

Results flagged for a closer look

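The effect of the knockdown differed between lines for 19 combinations of member and line pair, by the interaction terms of limma on all 18 libraries at an adjusted p below 0.05, and these are given here as differences of log2 changes. CCND2 passed the filter of that fit only through its knockdown libraries.

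For PANC1 minus MIA PaCa-2, the difference was -0.60 for CCND1, -1.27 for CCND2, 0.60 for CCND3, -2.30 for CDKN1A and 0.52 for CDKN2C. Both lines had the same direction of change in each of these members, so the difference was one of size. CCND2 in this pair moved with the pseudocount, over a range from -2.09 to -0.22 among the alternatives.

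For PANC1 minus PATU8988T, it was -0.67 for CCND1, 1.82 for CCND2, -0.71 for CCND3, -0.96 for CDK6, 0.35 for CDKN1B, 0.79 for CDKN1C and -0.45 for CDKN2C. CCND3 fell in the former line and rose in the latter.

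For MIA PaCa-2 minus PATU8988T, it was 3.10 for CCND2, -1.31 for CCND3, -0.77 for CDK6, 2.75 for CDKN1A, 0.45 for CDKN1B, 1.33 for CDKN1C and -0.97 for CDKN2C. CCND3 again moved in opposite directions. The causes of these differences were not tested.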

How the results depend on the processing

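Of 156 alternative counts of members called within or between lines, 147 lay within 1.5 times the reported count. No change called in the main fit turned direction. CDK4 in MIA PaCa-2, at -0.03 and not called in the main fit, was higher and called with array weights (0.10, adjusted p = 0.00585). Without control replicate 2 it was likewise higher and called (0.10, adjusted p = 0.00252). In MIA PaCa-2, array weights gave 4 members higher in place of 2, CDK4 and CDKN1C being the additions. Leaving out 1 library gave 2 to 4 higher and 2 to 4 lower there, with 4 higher without control replicate 2, and 2 lower without control replicate 1 or 3 or any knockdown replicate, where CCND1 and CDK6 lost their calls. In PATU8988T, 1 fit of all 18 libraries gave 0 members higher of 8 tested by limma, with 1 at an unadjusted p below 0.05. CCND3 and CDKN1A lost their calls there, and CDKN2B was not tested. A minimum mean of 5 FPKM left 1 member lower there, because CDKN1C was no longer tested.

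The replicate numbers gave no clear sign of pairing. The 9 same-numbered pairs had correlations of their deviations from -0.11 to 0.13, and differently numbered pairs in PATU8988T reached -0.23 and 0.23. With 3 libraries in each group, these correlations cannot settle whether the libraries were paired. With the replicate number as a block, PANC1 had 4 members higher and 5 lower, MIA PaCa-2 had 2 higher and 3 lower, and PATU8988T had 3 higher and 2 lower. CDK4 in PANC1 was then called (adjusted p = 0.0298) and CCND1 in MIA PaCa-2 was not (adjusted p = 0.0921). Between lines the block ended the call for CDKN1B in PANC1 minus PATU8988T (adjusted p = 0.0700) and made those for CDKN1C in PANC1 minus MIA PaCa-2 (adjusted p = 0.0405) and CDKN1A in PANC1 minus PATU8988T (adjusted p = 0.0439).

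Some differences between lines also lost their calls, by a small margin, when 1 library was left out. CDK6 in MIA PaCa-2 minus PATU8988T lost its call without MIA PaCa-2 control 1 or 3 or PATU8988T knockdown 1 (adjusted p 0.0503 to 0.0588), CDKN1B in PANC1 minus PATU8988T without PATU8988T control 1 or knockdown 2 (0.0526 to 0.0584), and CDKN1C in that pair without PATU8988T knockdown 3 (0.0509). The causes were not tested. CCND2 had as few as 8 reads in a library, and CDKN2B was listed at 0 in PANC1 and MIA PaCa-2.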
